A study of Mus musculus with 12 samples.

Results

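Carboxylesterases are serine hydrolases of the endoplasmic reticulum of hepatocytes that cleave ester, thioester and amide bonds in drugs and in lipids. The transcripts of 10 mouse carboxylesterase genes were examined in liver, namely Ces1b, Ces1c, Ces1d, Ces1e, Ces1f and Ces1g of the Ces1 subfamily, Ces2a and Ces2e of the Ces2 subfamily, and Ces3a and Ces3b of the Ces3 subfamily. They were picked by symbol from 22322 gene symbols, with earlier results of these data known, and they are 10 of the 19 carboxylesterase symbols in the tables. Each symbol is represented by its transcript row with the highest mean level, so the height of a level was part of the choice and levels are given as a description.

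The study compared wild-type (WT) livers with livers that lack Bmal1 (KO), the gene Arntl, whose product drives the circadian clock together with CLOCK. The 12 mice were C57BL/6, were 8 weeks old and were moved from a light-dark cycle into constant darkness for their last days. They form 4 groups of 3 by sample title, WT at CT0, WT at CT12, KO at CT0 and KO at CT12, where CT0 is the hour at which the lights would have come on. The sample descriptions write ZT for the same times that the titles write as CT, and CT is used here because the labels also describe the darkness. The treatment text in the labels names 2 mice per genotype and time, whereas the titles give 3, and 12 separate libraries were analysed. By the methods of the study the WT mice carried Bmal1 flox/flox alleles, the KO mice were floxed mice crossed to a CRE driven by a liver-specific promoter, and the mice were male. The sources state no CRE in WT, and effects of CRE cannot be told apart from loss of Bmal1. The liver was taken whole, so less RNA per hepatocyte and fewer hepatocytes cannot be told apart either, and p-values measure the spread between these samples only.

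The depth recovered from the low values lay between 11470000 and 19020000 reads per library, and log2 values of replicates correlated across genes with r from 0.979 to 0.9894. Arntl was at 15.7 to 16.35 RPKM in WT at CT0 and at 5.732 to 7.45 in KO at CT0, and at CT12 it was at 0.68 to 1.26 in WT and at 3.589 to 4.37 in KO. The KO livers thus held Arntl reads, and the whole transcript was counted, not only the deleted exon. Of 5 hepatocyte markers, Alb was lower in KO (-0.99 ± 0.09 on the log2 scale, SE, limma adjusted p = 3.64e-05), while Apoa1, Ttr, Serpina1c and Tat did not pass the test. The summed hepatocyte markers were at 43500 to 48700 RPKM in WT at CT0, 36300 to 44200 in WT at CT12, 27700 to 32800 in KO at CT0 and 24400 to 27800 in KO at CT12, mostly Alb. Oat, 1 of 5 pericentral hepatocyte markers, was higher in KO over both times (0.87 ± 0.19, adjusted p = 0.0119), and Lgr5 was higher at CT12 (0.91 ± 0.18, adjusted p = 0.00618). Alas2, 1 of 3 red blood cell markers, was lower over both times (-0.47 ± 0.11, adjusted p = 0.0165, limma). The other red blood cell markers had differences of the opposite sign and did not pass the test. Hba-a1 had 0.47 ± 0.23 (adjusted p = 0.216) and Hbb-b1 0.42 ± 0.25 (adjusted p = 0.328, limma). The summed pericentral markers were at 2710 to 4990 RPKM in WT and 2880 to 4480 in KO, and the summed red blood cell markers at 82.4 to 275 in WT and 153 to 213 in KO. None of the 5 Kupffer cell, 4 endothelial, 4 stellate, 4 periportal, 2 cholangiocyte or 1 lymphocyte markers tested passed the test between genotypes, and the part of cell makeup in the results below was not tested.

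In mouse, the carboxylesterases lie in tandem on one chromosome, in a Ces1 array and in an array that holds Ces2, Ces3 and Ces4a. The Ces1 enzymes prefer substrates with a small alcohol group and several hydrolyse stored triglyceride, and the Ces2 enzymes prefer a large alcohol group. Ces1d, also known as triacylglycerol hydrolase, supplies lipid for the assembly of very low density lipoprotein. Ces1g is a lipid hydrolase whose loss is known to cause fatty liver, Ces1c is the abundant esterase of mouse plasma, and Ces1e is egasyn, which holds beta-glucuronidase in the endoplasmic reticulum. Ces1f is a further triglyceride hydrolase of the same compartment. In several tissues Ces2a hydrolyses acylglycerols, and Ces2e is an esterase of liver and intestine.

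All 10 genes passed the filter on low values (a group mean of 1 RPKM or more in some group). RPKM is scaled to transcript length, so that levels may be set side by side between genes, though rows of 1 gene can differ. The Ces1c row used has 531 bases, and the full-length Ces1c row of 1828 bases had a lower mean, 1479 RPKM in WT at CT0. In WT at CT0, Ces1c was at 1828 ± 110.8 RPKM (SD, n = 3), Ces3a at 959.3 ± 49.98 and Ces1d at 492.1 ± 95.8, and the ranges of these 3 neighbours were apart. Below them stood Ces1f at 270.6 ± 11.4 RPKM, Ces3b at 221.1 ± 58.6 and Ces2a at 196.4 ± 13.8, and the ranges of neighbours in that order overlapped. The lower end held Ces1g at 122.8 ± 13.6 RPKM, Ces1e at 99.1 ± 10.2, Ces2e at 83.7 ± 6.57 and Ces1b at 33.3 ± 5.58, where the ranges of Ces1e and Ces2e overlapped. The order was the same in WT at CT12, with the ranges now overlapping also between Ces3a and Ces1d and between Ces1g and Ces1e. In KO at CT0 the order was Ces1c, Ces3a, Ces2a, Ces3b, Ces1d, Ces1f, Ces2e, Ces1g, Ces1e and Ces1b, and the ranges overlapped within the pairs Ces2a and Ces3b, and Ces1f and Ces2e. In KO at CT12 Ces1f stood above Ces1d and Ces3b above Ces2a, and the ranges overlapped within the pairs Ces3b and Ces2a, and Ces1d and Ces2e. Ces1d thus had rank 3 of the 10 in WT, rank 5 in KO at CT0 and rank 6 in KO at CT12.

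**Figure D1:**
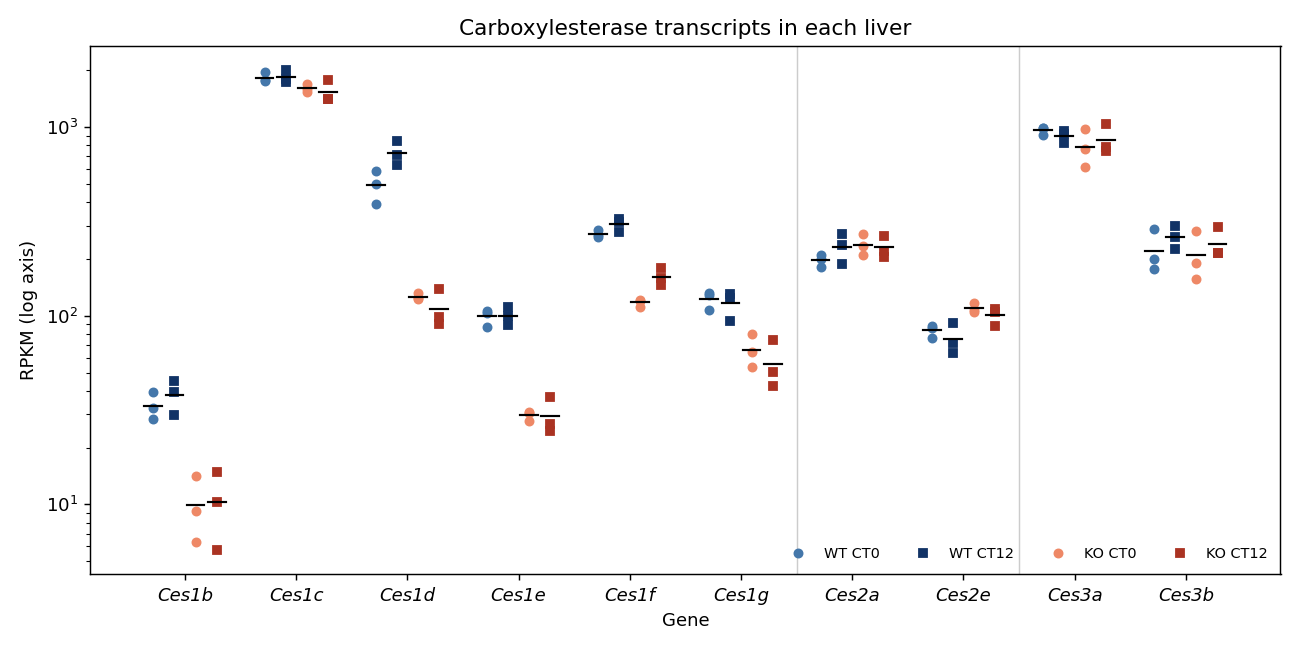
RPKM of the 10 carboxylesterases on a log axis, 1 point per liver, with the mean of each group as a short line; circles are CT0, squares are CT12, blue is WT and red is KO. The KO points of Ces1b, Ces1d, Ces1e, Ces1f and Ces1g lie under every WT point, those of Ces1c lie mostly under and those of Ces2e mostly above the WT points, and those of Ces2a, Ces3a and Ces3b overlap the range of the WT points.

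Over the 6 Ces1 genes the summed level in WT was 2846 ± 229.6 RPKM at CT0 (SD, n = 3) and 3136 ± 283.3 at CT12, against 1958 ± 93.9 and 1893 ± 271.5 in KO at the same times. Ces1c made up 62.9% to 66.7% of that sum in WT at CT0 and 58.1% to 59.7% in WT at CT12, and 81.8% to 82.7% and 80.1% to 81.9% in KO. Without Ces1c the sum was 1018 ± 130.4 RPKM in WT at CT0, 1290 ± 140.7 in WT at CT12, 349.1 ± 18.3 in KO at CT0 and 365.9 ± 65.3 in KO at CT12. Ces1d alone fell from a share of 14.9% to 24.4% of the 6 genes in WT livers to 5.27% to 6.99% in KO livers. All sums and shares that include Ces1c rest on its row of 531 bases. Its full-length row was lower, with means at CT0 and CT12 of 1479 and 1489 RPKM in WT and 1335 and 1222 in KO.

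Gene for gene, KO was compared with WT by the mean of the differences at CT0 and CT12 and then at each time. Over both times 5 of the 10 genes were lower in KO and 1 was higher, where 4.03% of the 10799 tested genes were lower and 7.44% were higher. The 5 lower genes were Ces1b, Ces1d, Ces1e, Ces1f and Ces1g, and the higher one was Ces2e. The median difference of the 10 genes was -0.61 and that of all tested genes 0.043. For the same 5 Ces1 genes all 6 KO livers lay under all 6 WT livers, which held for 1.34% of the tested genes. The fall of Ces1d was among the results known when the genes were picked, so it is given as a description.

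**Figure D2:**
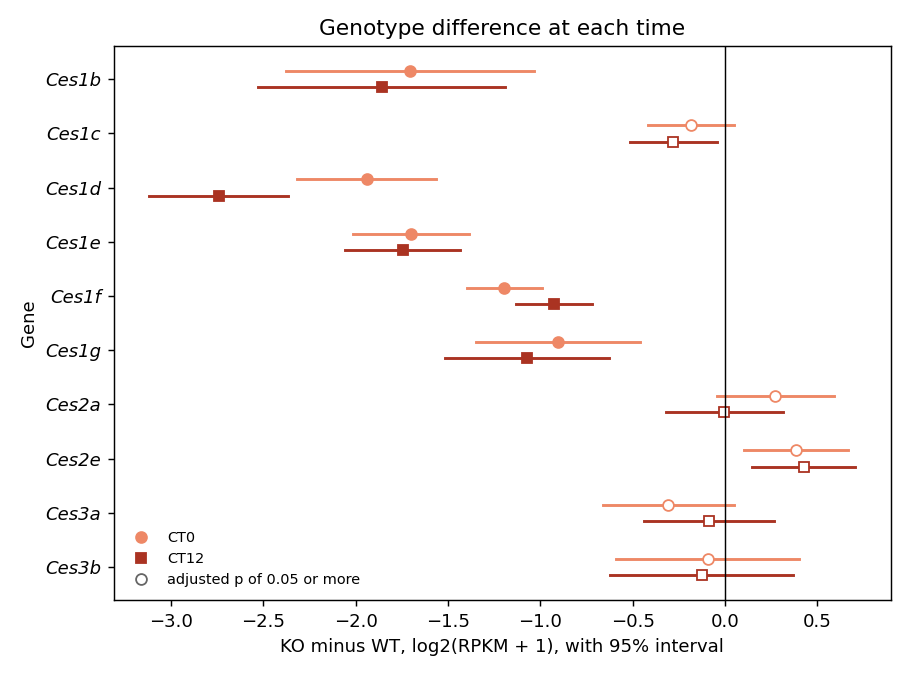
KO minus WT of each gene on the log2(RPKM + 1) scale at CT0 (circles) and CT12 (squares), with the 95% interval of limma; filled symbols have an adjusted p under 0.05. Differences of Ces1b, Ces1d, Ces1e, Ces1f and Ces1g lie between -2.74 and -0.90, and those of the other 5 genes lie between -0.31 and 0.42.

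Ces1d was at 391.7, 582.6 and 502.0 RPKM in WT at CT0 and at 711.4, 630.9 and 843.4 in WT at CT12. In KO it was at 131.3, 122.9 and 123.7 RPKM at CT0 and 90.6, 98.8 and 138.0 at CT12. Every KO liver was far under the lowest WT liver. The differences were -1.94 ± 0.17 at CT0 and -2.74 ± 0.17 at CT12 on the log2(RPKM + 1) scale (SE, n = 3 per group), 3.83-fold and 6.69-fold lower levels on that scale.

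Ces1e, whose product binds beta-glucuronidase, was at 87.4, 104.0 and 106.0 RPKM in WT at CT0 and at 99.1, 88.8 and 111.1 in WT at CT12. The KO livers held 30.7, 27.6 and 30.9 RPKM at CT0 and 26.6, 24.5 and 36.9 at CT12. The groups of KO and WT did not overlap, and KO kept 30.0% of the WT mean at CT0 and 29.4% at CT12. The differences were -1.70 ± 0.14 at CT0 (adjusted p = 7.96e-05) and, for CT12, -1.75 ± 0.14 (adjusted p = 1.35e-05, limma).

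Ces1b, a less studied neighbour, was at 28.2, 32.4 and 39.3 RPKM in WT at CT0 and at 39.5, 29.9 and 45.2 in WT at CT12. Its KO values were 6.35, 9.19 and 14.1 RPKM at CT0 and 5.72, 14.9 and 10.3 at CT12. The highest KO liver was under the lowest WT liver, although the KO livers differed among themselves by a larger factor than for Ces1d or Ces1e. Ces1b fell by 1.71 ± 0.31 at CT0 (adjusted p = 0.0164) and fell by 1.86 ± 0.31 at CT12 (adjusted p = 0.00223, limma). At CT0 Ces1b no longer passed when WT CT0 replicate 2 was left out (adjusted p = 0.0677), nor when WT CT0 replicate 3 (0.0732) or KO CT0 replicate 1 (0.0595) was.

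Ces1f was at 261.1, 283.3 and 267.3 RPKM in WT at CT0 and at 278.7, 327.4 and 315.5 in WT at CT12. KO livers had levels of 120.1, 111.6 and 121.4 RPKM at CT0 and 146.2, 159.2 and 178.7 at CT12. The 4 groups were tight and the genotypes did not overlap. The differences were -1.19 ± 0.09 at CT0 (adjusted p = 4.01e-05) and, for CT12, -0.93 ± 0.09 (adjusted p = 6.26e-05, limma), with 43.5% and 52.5% of the WT mean left.

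Ces1g was at 107.2, 129.5 and 131.7 RPKM in WT at CT0 and at 124.3, 94.3 and 130.2 in WT at CT12. In KO the values were 53.5, 64.1 and 79.8 RPKM at CT0 and 42.4, 50.4 and 74.5 at CT12. All KO livers were under all WT livers, though the gap between the genotypes was smaller than the range of either KO group. Ces1g fell by 0.90 ± 0.20 at CT0 (adjusted p = 0.0475) and fell by 1.07 ± 0.20 at CT12 (adjusted p = 0.0053, limma). The CT0 value was just inside the threshold, and only 6 of 20 alternatives kept it there, with adjusted p from 0.0187 to 0.168; it was lost without any 1 of the 6 livers of CT0, with the highest adjusted p without WT CT0 replicate 2.

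Ces1c, the plasma esterase, was at 1755, 1956 and 1774 RPKM in WT at CT0 and at 1795, 1735 and 2007 in WT at CT12. Its levels in KO were 1536, 1598 and 1691 RPKM at CT0 and 1409, 1403 and 1767 at CT12. The genotypes did not overlap at CT0 and overlapped at CT12 through the third KO liver. Ces1c did not pass the test over both times (-0.23 ± 0.08, 95% interval -0.40 to -0.07, adjusted p = 0.0726), at CT0 (-0.18 ± 0.11, adjusted p = 0.483) or at CT12 (-0.28 ± 0.11, adjusted p = 0.127, limma). Leaving out KO CT12 replicate 3 took it past the threshold over both times (-0.29, adjusted p = 0.0192), as did quantile normalization (-0.37, adjusted p = 0.0136). At CT12 it passed under the same alternatives (-0.39, adjusted p = 0.0349, and -0.45, adjusted p = 0.0324). Its row is a transcript of 531 bases, and the full-length row of 1828 bases gave -0.22 ± 0.08 (adjusted p = 0.0811).

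At CT0 the genes lower in KO numbered 5 of 10, against 0.843% of all tested genes, and at CT12 they numbered 5 of 10, against 3.49%. Both counts are of the same 5 Ces1 genes and include Ces1d. No gene was called higher at either time alone. The WT and KO livers of CT0 and of CT12 are separate animals, but both times enter the mean difference, so these counts are not independent of the one over both times.

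Upstream of the Ces1 genes the sequences themselves can be compared where the RefSeq promoter table (GRCm38.p6) holds an entry, which it does for 7 of the 10 genes (all but Ces1d, Ces1f and Ces3a). The 250 bases before each start were searched on both strands for TTATGTAA, a form of the D-box that the PAR bZIP factors DBP, TEF and HLF and the repressor NFIL3 can bind. It was present in 4 of these 7 genes, Ces1b, Ces1c, Ces1e and Ces1g, and in 0.819% of 32851 promoters, and it was absent from the windows of Ces2a, Ces2e and Ces3b. The 7 genes have 8 windows, since Ces1b has a further start. The same TTATGTAA reaches onto that start, so the 250 bases before it do not hold all its letters and no match was counted there. A gene was counted with a match in any of its windows, whereas the percentages are of single windows. The related letters TTATGCAA were in Ces1b and Ces1c (0.694% of promoters), the E-box CACGTG in none of the 7 (6.02%), and AGGTCA, the core letters of ROR and other nuclear receptor sites, in Ces2a (14.0%). The motifs do not overlap one another in these windows. In the windows that hold it, the match began 84 bases before the start of Ces1b, 94 before that of Ces1c, 81 before that of Ces1e and 232 before that of Ces1g. The 100 bases around it are shown because these are the letters that these 4 Ces1 genes share, with TTATGTAA in capitals. They lie on the minus strand at chr8:93079971-93080070, chr8:93131324-93131423, chr8:93229647-93229746 and chr8:93337360-93337459 of GRCm38.p6, in that order.
Ces1b: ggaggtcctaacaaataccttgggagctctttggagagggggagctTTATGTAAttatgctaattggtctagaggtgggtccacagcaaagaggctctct
Ces1c: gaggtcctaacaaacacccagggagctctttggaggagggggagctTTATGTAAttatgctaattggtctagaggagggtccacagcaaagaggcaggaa
Ces1e: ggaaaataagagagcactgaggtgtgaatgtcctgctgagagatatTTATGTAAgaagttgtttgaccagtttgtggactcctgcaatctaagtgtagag
Ces1g: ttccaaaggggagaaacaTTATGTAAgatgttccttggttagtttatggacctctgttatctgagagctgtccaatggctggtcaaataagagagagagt
In Ces1b and Ces1c the 250 bases were 94.6% identical outside 54 gap bases, whereas other pairs of the 7 genes were 55.8% to 69.9% identical. The windows were aligned end to end. Likeness of stretches at unlike distances from the start, as around the match in Ces1e and Ces1g, can be missed in this way. Whether the matches of the 4 related genes arose separately was not tested. Ces1b fell in KO and Ces1c did not pass the test, and both hold the match. A match of letters is a description and not evidence of binding.

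Near-identical coding stretches limit how well some of the 10 genes can be told apart. Coding sequences of the Ces1 genes were 74.5% to 91.2% identical between pairs (NCBIM37, GENCODE vM1), with Ces1b and Ces1c the closest, Ces2a and Ces2e were 83.8% identical, and Ces3a and Ces3b were 95.3% identical. Of all 50-base windows of the coding sequence, 33.9% in Ces3a and in Ces3b, 12.0% in Ces1b and 14.2% in Ces1c occurred without a mismatch in another carboxylesterase. The share was 0.611% in Ces1f, 1.52% in Ces1d, 2.37% in Ces1g, 3.96% in Ces1e, 2.76% in Ces2a and 5.46% in Ces2e. The longest stretch shared by Ces1b and Ces1c lies in exon 14 of Ces1b at chr8:95580805-95580922 and in exon 13 of Ces1c at chr8:95623083-95623200, on the minus strand of NCBIM37, and it is shown because a read inside it has no single origin.
Ces1b and Ces1c: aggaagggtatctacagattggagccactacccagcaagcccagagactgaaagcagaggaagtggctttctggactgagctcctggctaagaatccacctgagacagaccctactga
The longest stretch of Ces3a and Ces3b spans exons 4 and 5 on the plus strand, at chr8:107574460-107575505 in Ces3a and at chr8:107609534-107610595 in Ces3b with the intron included.
Ces3a and Ces3b: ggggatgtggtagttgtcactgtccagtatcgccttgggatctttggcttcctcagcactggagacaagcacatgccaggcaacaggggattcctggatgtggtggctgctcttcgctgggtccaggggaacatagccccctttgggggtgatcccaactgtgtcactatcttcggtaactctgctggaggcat
How the authors counted a read that matches both genes of such a pair is not given in the sources used here. The values of Ces1b, which stood far under those of Ces1c, and of Ces3a and Ces3b are therefore uncertain. Ces1d, Ces1e, Ces1f and Ces1g shared few exact 50-base coding windows, for Ces1e on its annotated row and not the row whose RPKM is given. Windows with mismatches and sequence outside the coding part were not examined, so how far their reads are their own was not tested.

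No Ces2 gene was called lower in KO. Ces2e was at 76.3, 86.3 and 88.6 RPKM in WT at CT0 and at 91.0, 63.6 and 71.3 in WT at CT12. The KO levels were 116.2, 104.7 and 107.3 RPKM at CT0 and 88.4, 109.2 and 104.4 at CT12. The KO livers were above the WT livers at CT0, and at CT12 1 KO liver lay under the highest WT liver. Ces2e was higher in KO over both times (0.40 ± 0.09, a 1.32-fold difference, adjusted p = 0.0127, limma), and neither time alone passed the test (at CT0 0.38 ± 0.13 with an adjusted p of 0.177, at CT12 0.42 ± 0.13 with an adjusted p of 0.0565). At CT12 it passed without WT CT12 replicate 1 (adjusted p = 0.0128) and without KO CT12 replicate 1 (adjusted p = 0.0417), with quantile normalization (adjusted p = 0.0357) and with the longest transcript row (adjusted p = 0.0481).

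Ces2a was at 181.6, 198.9 and 208.8 RPKM in WT at CT0 and at 270.6, 238.0 and 187.4 in WT at CT12. In KO livers it was at 210.5, 234.2 and 269.8 RPKM at CT0 and 203.9, 266.1 and 220.4 at CT12. The KO livers were above the WT livers at CT0 and lay among them at CT12. Ces2a did not pass the test over both times (0.13 ± 0.10, 95% interval -0.09 to 0.36, adjusted p = 0.467, limma). The estimates were 0.27 ± 0.15 at CT0 (adjusted p = 0.434) and, for CT12, -0.0046 ± 0.15 (adjusted p = 0.989).

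Ces3a and Ces3b are close copies of each other whose roles in liver are less settled. The SD of Ces3a was 49.98 and 65.55 RPKM in WT at CT0 and CT12, and 182.9 and 159.6 in KO. For Ces3b the SD was 58.6 and 36.72 RPKM in WT, and 64.35 and 46.13 in KO, so its spread was wide in WT too. Ces3a was at 983.5, 992.6 and 901.9 RPKM in WT at CT0 and at 921.8, 953.9 and 827.7 in WT at CT12. In KO it was at 616.1, 980.3 and 768.5 RPKM at CT0 and 744.4, 1039 and 785.3 at CT12. KO and WT overlapped at both times, and Ces3a did not pass the test over both times (-0.20 ± 0.12, 95% interval -0.45 to 0.05, adjusted p = 0.319, limma). Its estimates were -0.31 ± 0.16 at CT0 (adjusted p = 0.429) and, for CT12, -0.087 ± 0.16 (adjusted p = 0.79).

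Ces3b was at 287.5, 199.3 and 176.5 RPKM in WT at CT0 and at 298.1, 262.6 and 224.7 in WT at CT12. The KO livers held 156.0, 280.4 and 189.8 RPKM at CT0 and 213.7, 294.2 and 214.9 at CT12. The genotypes overlapped at both times, with 1 liver of each CT0 group far above the other 2. The difference over both times was -0.11 ± 0.16 (95% interval -0.46 to 0.24, adjusted p = 0.73, limma). The CT0 livers gave -0.094 ± 0.23 (adjusted p = 0.897), and the CT12 livers gave -0.13 ± 0.23 (adjusted p = 0.785).

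The change from CT0 to CT12 was compared within each genotype, and the WT and KO comparisons share no livers. In WT none of the 10 genes passed the test, against 11.6% of all tested genes, with differences from -0.17 to 0.57, and 1 gene had an unadjusted p under 0.05. That gene was Ces1d, with a difference of 0.57 ± 0.17 (95% interval 0.20 to 0.95, adjusted p = 0.0518, limma), and its WT livers did not overlap between the times. It passed in 6 of 20 alternatives, with adjusted p from 0.028 to 0.18, among them without WT CT0 replicate 2 (0.0458), without KO CT12 replicate 1 (0.047) and without KO CT12 replicate 3 (0.028), the last 2 being no livers of WT.

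In KO 1 of the 10 genes was higher at CT12, against 1.1% of the tested genes. It was Ces1f (0.45 ± 0.09, adjusted p = 0.0322, limma), whose 3 KO livers at CT12 were all above those at CT0, while in WT it differed by 0.18 ± 0.09 (adjusted p = 0.243). The call was lost without any 1 of the 3 KO livers of CT0 (adjusted p = 0.0561, 0.0676 and 0.0828) and without KO CT12 replicate 2 (0.0806) or replicate 3 (0.0702), and with the 6 KO livers alone (0.116). The other 9 genes differed by -0.26 to 0.23 in KO and did not pass the test.

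The difference between genotypes was then compared between the times (KO minus WT at CT12, less the same at CT0). None of the 10 genes passed the test for this interaction, against 1.49% of all tested genes, and 1 had an unadjusted p under 0.05. Ces1d had the lowest value, -0.80 ± 0.24 (95% interval -1.34 to -0.27, unadjusted p = 0.00655, adjusted p = 0.17, limma), and Ces1f the highest, 0.27 ± 0.13 (adjusted p = 0.44). The interval of Ces1f (-0.02 to 0.56) and those of the other 8 genes all held 0. In 19 alternatives the adjusted p of Ces1d for the interaction lay between 0.0632 and 0.322.

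**Figure D3:**
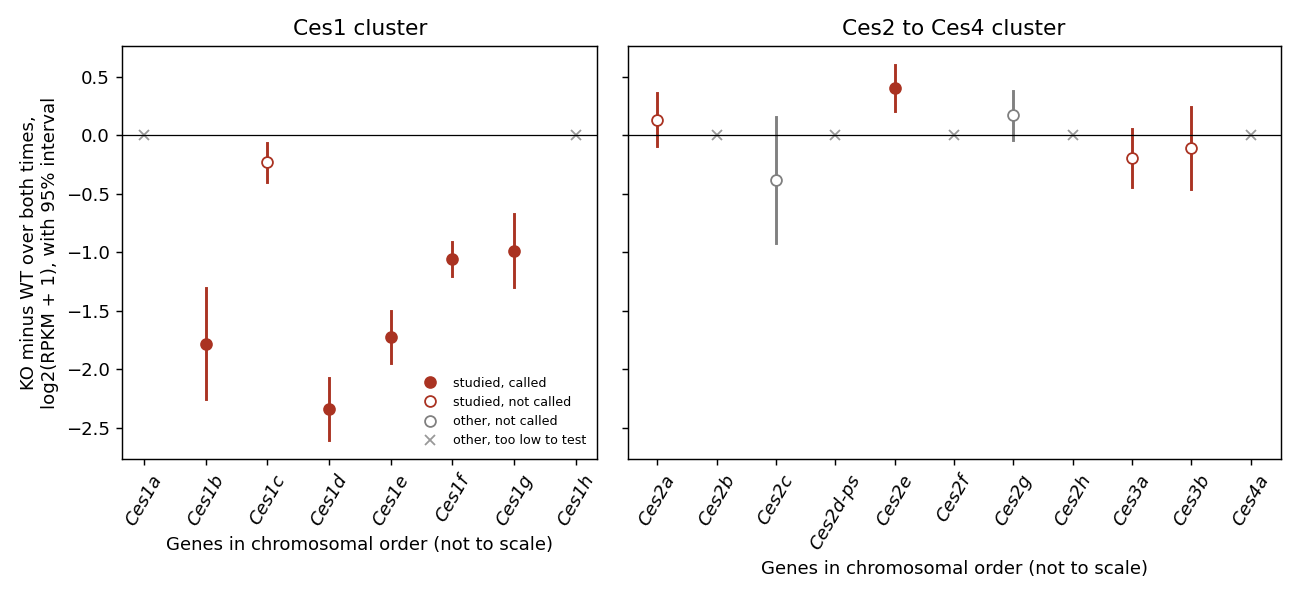
KO minus WT over both times on the log2(RPKM + 1) scale with the 95% interval, for the carboxylesterases in their chromosomal order (spacing not to scale), the Ces1 array at the left and the array of Ces2, Ces3 and Ces4a at the right. Filled symbols passed the test, grey symbols are carboxylesterases outside the 10 genes, and a cross marks a gene too low to test; the 5 lower genes lie in the Ces1 array on both sides of Ces1c.

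The 5 genes that fell lie in one array. On NCBIM37 the Ces1 genes are all on the minus strand of chromosome 8, from Ces1a at 95544113 to Ces1h at 95903624, and Ces1c (95622914 to 95655182) lies between Ces1b (95580626 to 95603916) and Ces1d (95689967 to 95721737). Ces1e, Ces1f and Ces1g follow in that order up to 95861207. Ces2a, Ces2e, Ces3a and Ces3b are on the plus strand, between 107257903 and 107617829. Within 500 kb of the Ces1 array 1 of 8 other protein-coding genes, Lpcat2, was expressed enough to test, and its difference over both times was -0.05. Around the other array 22 of 44 such genes were tested, and none passed the test over both times, with differences from -0.21 to 0.29.

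Of the 9 other carboxylesterase symbols, 2 passed the filter. Ces2c was at 3.32 to 18.6 RPKM and Ces2g at 11.6 to 18.7 over the 12 livers, and neither passed the test over both times (-0.38 ± 0.25, adjusted p = 0.379, and 0.17 ± 0.10, adjusted p = 0.307, limma). Ces2c shares 66.8% of its 50-base coding windows with the pseudogene Ces2d-ps, so its value is uncertain too. Ces1a, Ces1h, Ces2b, Ces2d-ps, Ces2f, Ces2h and Ces4a had group means under 1 RPKM and were not tested.

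Over the 12 livers, the Ces1 genes varied together. Pearson's r of log2(RPKM + 1) lay between 0.709 and 0.981 for the 15 pairs of Ces1 genes (median 0.921), with Ces1d and Ces1e the closest pair. Between Ces1 and Ces2 genes r lay between -0.83 (Ces1f and Ces2e) and -0.121, and between Ces1 and Ces3 genes between -0.073 and 0.558. Ces3a and Ces3b were at 0.73, a pair that shares coding stretches. Once the group means were removed, r of the 15 Ces1 pairs lay between 0.2 and 0.887 (median 0.621), while Ces1 and Ces2 pairs lay between -0.237 and 0.55. These values are a description, since all genes of a liver share its library and depth and the 12 points fall into 4 groups.

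**Figure D4:**
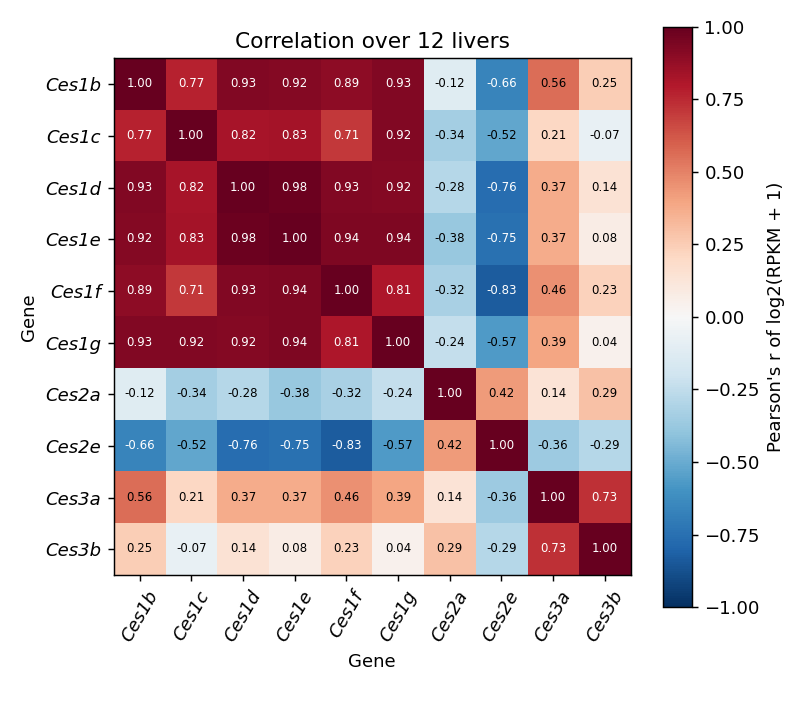
Pearson's r of log2(RPKM + 1) between the 10 carboxylesterases over the 12 livers, from -1 (blue) to 1 (red). The 6 Ces1 genes form a block with r of 0.709 or more, and Ces2e is negatively correlated with each of them.

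The tested genes outside the family whose pattern over the 12 livers was most like that of Ces1d were Nat8 (r = 0.981), Chchd10 (0.976) and Aldh3a2 (0.971), the last a fatty aldehyde dehydrogenase. For Ces1e the 2 closest were Fitm1, which acts in lipid droplet formation, at 0.976 and Nat8 at 0.973. Dio1, the deiodinase that activates thyroid hormone, was most like Ces1f (0.976), followed by Fitm1 (0.96) and Perp (0.953). Ces1b was closest to Pbld2 (0.955), and Ces1c and Ces1g were both closest to the cytochrome P450 gene Cyp2d26 (0.94 and 0.964). For Ces2e, Ces3a and Ces3b the closest genes were Apoa1bp (0.964), the complement gene C8b (0.921) and the folding regulator Xbp1 (0.917), and for Ces2a no gene reached 0.85, with D930014E17Rik at 0.847.

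Other hydrolases of lipid and ester substrates were taken from lists. Of 18 tested genes of neutral lipid hydrolysis and lipid droplets, 1 was higher and 2 were lower in KO over both times, with a median difference of -0.020, against 7.44% higher and 4.03% lower of all tested genes. Nothing is read about the list from counts this small. Abhd6 (-1.35 ± 0.13, adjusted p = 4e-05) and Mgll (-0.79 ± 0.15, adjusted p = 0.00566), both monoacylglycerol hydrolases, were lower, and Lipc, hepatic lipase, was higher (0.69 ± 0.09, adjusted p = 0.000318, limma). Pnpla2, the adipose triglyceride lipase, did not pass the test (-0.16 ± 0.10, adjusted p = 0.358). Among 16 other esterases and drug hydrolases 3 were higher and 3 lower, against the same 7.44% and 4.03%, with a median of 0.039. The largest changes were those of the epoxide hydrolase Ephx2 (-0.59 ± 0.09, adjusted p = 0.0011), Afmid (-0.48 ± 0.10, adjusted p = 0.00911), Nceh1 (-0.42 ± 0.11, adjusted p = 0.0224) and the paraoxonase Pon1 (0.37 ± 0.08, adjusted p = 0.0125, limma). In 6 alternatives, each without 1 liver, Nceh1 no longer passed the test, with adjusted p up to 0.0575.

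Of 15 transcription factors and receptors tied to carboxylesterase genes, 5 were lower and none higher in KO over both times, against 4.03% lower and 7.44% higher of all tested genes, with a median difference of -0.24. The list was chosen with earlier results of these data known. They were Nr1d1 (-0.99 ± 0.22, adjusted p = 0.0126), Ppara, the receptor for fatty acids (-0.83 ± 0.08, adjusted p = 6.3e-05), Dbp (-0.80 ± 0.19, adjusted p = 0.0161), Nr1i3, the xenobiotic receptor CAR (-0.76 ± 0.14, adjusted p = 0.00479), and Cebpa (-0.34 ± 0.07, adjusted p = 0.0101, limma). Nr1d1 had no mean above 4 RPKM in any group, and with a pseudocount of 0.1 Dbp had an adjusted p of 0.0562. Dbp, which can bind the D-box letters given above, was at mean levels of 1.03 RPKM in WT at CT0, 24.1 in WT at CT12, 1.66 in KO at CT0 and 5.35 in KO at CT12. Ces1b, Ces1c, Ces1e and Ces1g each have a window that holds those letters. In WT these genes changed between CT0 and CT12 by -0.09 to 0.19 and did not pass the test. A link between any of these factors and the Ces1 genes was not tested.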

How the data were processed

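Liver RNA of 12 mice was sequenced from TruSeq libraries. The authors deposited 1 table per liver of RPKM values (reads scaled to transcript length and sequencing depth) for 46585 Ensembl transcripts with gene symbols, with replicates not pooled. Per the labels, the submitters' processing notes name TopHat2, bedtools 2.19.1 and mm9. How reads that match several genes or transcripts were counted is not given in the sources used here. Whole-read steps in the low values gave each library's depth (96.4% to 96.9% of low values within 0.1 of a whole read).

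Groups were taken from sample titles. For each symbol the row with the highest mean was kept, which for Ces1e is not in the annotation used, GENCODE vM1 on NCBIM37. The scale was log2(RPKM + 1), on which changes of low genes are understated. The 10799 symbols with a group mean of 1 RPKM or more in some group were fitted by a model of 4 group means with limma 3.58.1 in R 4.3.3 (lmFit, eBayes with trend), with Benjamini-Hochberg adjustment over all 10799 and a threshold of 0.05. All adjusted p-values are from limma and two-sided. The fit was tested on simulated data. Python 3.11.15, pandas 2.3.3, Biopython 1.88 and matplotlib 3.10.9 were used for tables, sequences and figures.

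The 10 genes and the gene lists were chosen with earlier results of these data known. All 10 genes were named, other carboxylesterases when they passed the filter, the genes most correlated with each, and from each list up to 4 genes past the threshold with the largest change over both times or in the interaction. Pnpla2 and Cebpa were added after their values were seen. Same-numbered livers of different groups did not deviate together (r of deviations from group means -0.0665 to 0.139, mean 0.00825), so replicate numbers were not used as pairs. Alternatives were another pseudocount, other filters, quantile normalization, summed rows, the replicate block, the 6 livers compared alone, leaving out each liver and, chosen after seeing the data, the longest transcript row.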

Additional observations from a re-analysis of the deposited data

Results flagged for a closer look

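None of the 10 carboxylesterases had a genotype difference that differed between CT0 and CT12 by the interaction test. Among Arntl and the genes of the lists, 4 passed the test (KO minus WT at CT12 less that at CT0, log2 scale, limma). The genes named for their correlation with a carboxylesterase and the neighbour Lpcat2 were not looked at for it. Arntl had 2.50 ± 0.18 (SE, adjusted p = 7.17e-05), with -1.21 at CT0 and 1.29 at CT12. Dbp had -2.41 ± 0.38 (adjusted p = 0.00775), with 0.40 at CT0 and -2.01 at CT12. Tef had -1.89 ± 0.15 (adjusted p = 0.000135), with 0.94 at CT0 and -0.94 at CT12. Lypla2, an acyl-protein thioesterase, had 0.59 ± 0.12 (adjusted p = 0.037), with -0.20 at CT0 and 0.39 at CT12, and it lost the call without 11 of the 12 livers in turn, with quantile normalization (adjusted p = 0.095) and with the replicate block (adjusted p = 0.0728).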

How the results depend on the processing

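Over both times 6 genes were called in the main analysis and 6 or 7 without each liver, and 7 with quantile normalization, where Ces1c was called too. At CT0 the count of 5 became 3 to 5 without each liver, with 3 without WT CT0 replicate 2, WT CT0 replicate 3 or KO CT0 replicate 1, each time through loss of Ces1b and Ces1g. At CT12 the count of 5 was 7 with quantile normalization (Ces1c and Ces2e added), 6 with the longest transcript row (Ces2e added) and 5 or 6 without each liver. For time in WT the count of 0 became 1 (Ces1d) with a filter of 1 RPKM in every sample, with the longest transcript row and with the replicate block, and was 0 to 1 without each liver. For time in KO the count of 1 became 0 with the 6 KO livers alone and was 0 to 1 without each liver. The interaction gave 0 genes in every alternative run. The replicate numbers share only a number, and the block changed no other count. The cause of these changes was not tested.

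Ces1b, Ces1d, Ces1e, Ces1f, Ces1g and Ces2e were called over both times in all 19 alternatives. Leaving out a liver turned the sign of 3 differences that had not passed the test, Ces3b at CT0 (-0.33 to 0.11), Ces2a at CT12 (-0.15 to 0.11) and Ces3a at CT12 (-0.23 to 0.00596). Quantile normalization moved the median difference of all genes over both times from 0.043 to -0.00046 and turned no member's sign in the genotype differences. The summed level of the 10 genes in WT at CT0 was 4307 RPKM, 7281 with summed rows, which count shared reads more than once, and 3897 with the longest transcript rows. At the lowest value Ces1b rested on 162 reads and the other 9 genes on at least 629 (for Ces1e, on its annotated row, not the row whose RPKM is given), so counting error was 7.86% or less. Groups of 3 livers set the precision.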
